A study of Mus musculus with 16 samples.

Results

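The expression of 10 cytokine genes was examined in the seminal vesicle (SV) of 5-week-old mice after neonatal exposure to diethylstilbestrol (DES), a synthetic oestrogen. The genes were chosen by symbol alone, without a threshold on any value: *Il1a*, *Il1b*, *Il1rn*, *Il6*, *Tnf*, *Il18*, *Il33*, *Il17a*, *Tslp* and *Csf1*. All 10 were found among the 31274 genes of the RNA-seq table, and 8 of them were among the 15988 genes with a mean above 1 FPKM in at least 1 group, which were tested. *Il6* and *Il17a* stayed below that level in every group. FPKM, a fragment count scaled to the exon length of the gene and to the library, allows for length, so that levels can be set side by side between genes.

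Whole SV was sequenced in 16 samples, 4 in each of 4 groups, at week 5. WT-veh were wild type C57BL/6 males given corn oil under the skin on days 1 to 5 of life, WT-DES were wild type males given DES at 2 µg per pup per day in corn oil on those days, and αERKO-veh and αERKO-DES were males of the same strain with a disrupted *Esr1*, the gene of oestrogen receptor α (ERα), under the same 2 treatments. The disruption is present in every tissue and from conception. Before freezing, the SV had been separated from the neighbouring anterior prostate. The methods describe individual mice for the other groups and pooled mice, in 3 pools, for the RNA of WT-DES, against 4 WT-DES samples in the table, so the WT-DES samples may be pools, and p-values measure the spread between these samples.

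*Esr1* checks the genotype labels: it was between 0.91 and 1.75 FPKM in the 8 αERKO samples, 2.81 to 4.55 in WT-veh and 8.74 to 19.6 in WT-DES, with no overlap between genotypes. The sum of FPKM was between 590446 and 652708 in WT-veh and between 375207 and 437619 in WT-DES. The secretory genes of the SV, which check the tissue, were present in every sample and lower in WT-DES (8 of 8 called, where 23.9% of all tested genes were called lower by the rule given below). Fragment counts are not part of FPKM values, so the depth behind each value is unknown. Precision was taken from the spread among samples within groups, as 1 estimate per gene shared by all groups. Some genes varied most in WT-DES, such as *Il1b* (SD 25.3 FPKM, and 0.15 to 0.25 in the other groups). For these, errors and p-values can be too small in comparisons with WT-DES, and too large between the other groups.

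Interleukin-1α (*Il1a*) and interleukin-1β (*Il1b*) are agonists of the same receptor, and the product of *Il1rn*, the IL-1 receptor antagonist, occupies that receptor without signalling. *Il18* and *Il33* encode further IL-1 family cytokines that epithelial cells hold ready in barrier tissues. TSLP is another epithelial cytokine, TNF and IL-6 are classical products of activated macrophages, IL-17A is made mainly by T cells, and CSF1 is the growth factor that maintains macrophages. Signals from the IL-1 and TNF receptors converge on NF-κB, which binds κB sites in DNA.

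The promoters of 3 of these genes are shown because they held a κB motif, searched as GGG, any 2 bases, then TTTCC on both strands. Windows of 300 bases (250 before to 50 after a RefSeq transcription start, GRCm38.p6) were searched for 9 of the genes, in 12 windows. *Tslp* was left out of this search. The motif was in 4 of the 12 windows, against 1.63% of all 32851 promoter windows, and these belonged to *Il1rn* (2 overlapping windows with the same match), *Csf1* and *Il6*. The match is in capitals and the strand is that of the gene. The *Il1rn* window is chr2:24345121-24345420 (plus strand), an internal start with the match beginning at position −51 from that start. The *Csf1* window is chr3:107760420-107760719 (minus strand), with the match at −154 as its reverse complement. The *Il6* window is chr5:30012864-30013163 (plus strand), with the match at −44.
Il1rn: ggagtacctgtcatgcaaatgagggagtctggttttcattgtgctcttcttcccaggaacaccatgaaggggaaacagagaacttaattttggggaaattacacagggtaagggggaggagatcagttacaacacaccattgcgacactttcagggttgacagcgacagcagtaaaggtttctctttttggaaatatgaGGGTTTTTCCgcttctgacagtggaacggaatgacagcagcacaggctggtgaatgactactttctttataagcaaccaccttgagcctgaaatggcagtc
Csf1: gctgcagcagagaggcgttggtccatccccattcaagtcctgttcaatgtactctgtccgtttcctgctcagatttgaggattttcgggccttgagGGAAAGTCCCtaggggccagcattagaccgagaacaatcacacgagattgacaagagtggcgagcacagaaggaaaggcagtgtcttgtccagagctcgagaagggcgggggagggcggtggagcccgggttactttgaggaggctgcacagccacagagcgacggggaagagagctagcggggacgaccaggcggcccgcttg
Il6: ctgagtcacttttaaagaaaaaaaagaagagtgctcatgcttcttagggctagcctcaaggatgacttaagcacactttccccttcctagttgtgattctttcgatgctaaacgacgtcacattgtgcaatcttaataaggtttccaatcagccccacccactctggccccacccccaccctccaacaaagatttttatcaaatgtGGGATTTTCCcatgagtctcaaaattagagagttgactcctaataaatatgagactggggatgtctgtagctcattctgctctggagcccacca
An AP-1 motif, TGANTCA, was in 4 of the 12 windows (*Il17a*, *Il1a*, *Il1rn* and *Il6*) and in 7.81% of all windows, and no AP-1 match overlapped a κB match. A full oestrogen response element, GGTCA, any 3 bases, then TGACC, was in 0 of the 12 windows and in 0.07% of all windows. These matches describe letters in the windows and are not binding sites measured here.

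Neonatal DES was followed by higher levels of these genes in WT SV. In 9 of the 10 genes every WT-DES sample was above every WT-veh sample, and also above all 12 other samples. *Il6* was the exception. A large part of the transcriptome differed in the same way: 32.7% of the 15988 tested genes had every WT-DES sample above every WT-veh sample, and 24.2% had every WT-DES sample above all 12 others. *Il1a*, *Il1b*, *Il1rn* and *Tnf* were tested only because WT-DES was high. Only *Il33*, *Tslp*, *Il18* and *Csf1* can therefore be read against these shares. The median log2 change of the 10 genes was 1.52, and that of all tested genes −0.01. These medians are of unlike sets, as the 10 include *Il6* and *Il17a*, not tested, and genes tested through WT-DES alone.

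**Figure D1:**
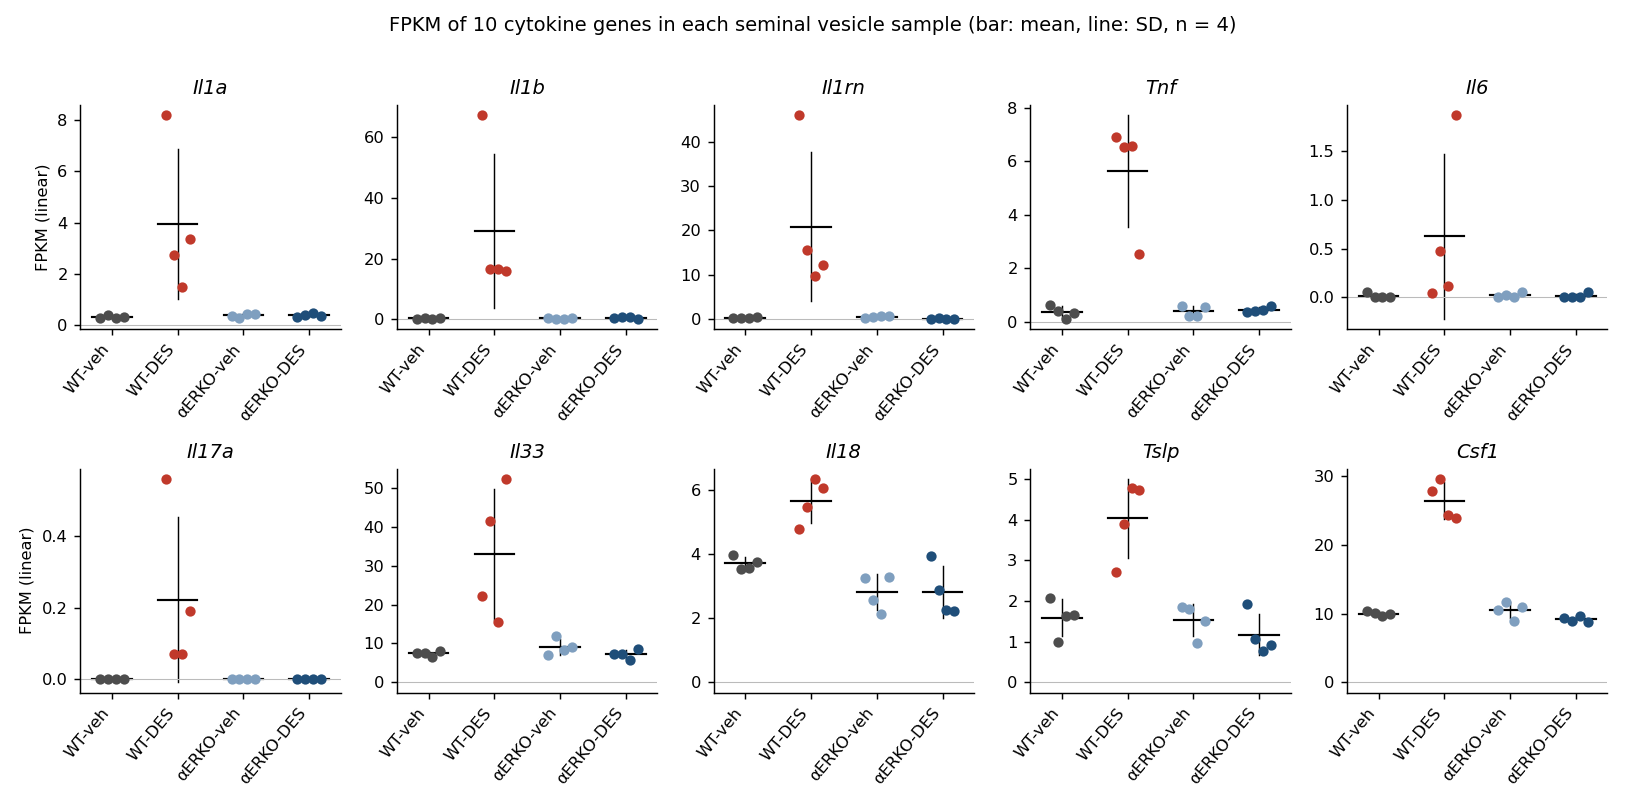
FPKM (linear axes, a separate scale per gene) of the 10 cytokine genes in each of the 16 samples, by group; each point is a sample, the bar is the mean and the vertical line the SD (n = 4). WT-DES points lie above all others for every gene but *Il6*; *Il1b* reaches 67.0 in WT-DES and stays at or below 0.82 elsewhere.

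*Il1b* and the antagonist gene *Il1rn* had the largest log2 changes of the 8 tested genes. *Il1b* (chr2:129364570-129371139, minus strand, GRCm38) was at 0.30, 0.53, 0.23 and 0.51 FPKM in the WT-veh samples and at 67.0, 16.6, 16.5 and 16.1 in WT-DES. It was at 0.65, 0.23, 0.26 and 0.59 in αERKO-veh and at 0.48, 0.82, 0.75 and 0.29 in αERKO-DES. WT-DES sample 1 stood far above the other WT-DES samples, which were almost equal, and the lowest WT-DES sample was far above the highest of any other group. The mean rose from 0.39 ± 0.15 to 29.0 ± 25.3 FPKM (SD, n = 4 each), and the log2 change was 4.14 (standard error 0.34, limma adjusted p = 6.21e-08). The ratio of the means was 74.0 with all 4 WT-DES samples and 41.8 without sample 1. In bulk tissue, more cells that carry a transcript and more transcript per cell cannot be told apart, here and below.

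*Il1a*, on the same chromosome (chr2:129299610-129309972, minus strand), was at 0.28, 0.42, 0.27 and 0.32 FPKM in WT-veh and at 8.17, 2.75, 1.48 and 3.35 in WT-DES. It was at 0.37, 0.30, 0.44 and 0.44 in αERKO-veh and at 0.31, 0.40, 0.47 and 0.38 in αERKO-DES. WT-DES sample 1 was again the highest, and sample 3 the lowest. The log2 change in WT was 1.73 (standard error 0.26, adjusted p = 3.15e-05), and the ratio of means was 12.2, or 7.83 without sample 1. Each of these genes overlaps a gene on the opposite strand, and whether the counting used strand is not given in the sources used here. *Gm14023*, opposite *Il1a*, was between 0.67 and 0.89 FPKM in WT-DES and between 0.85 and 1.03 in WT-veh. *Il1bos*, opposite *Il1b*, was between 0.72 and 1.49 in WT-DES, a level far under that of *Il1b*.

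The antagonist gene *Il1rn* (chr2:24336853-24351494, plus strand) was at 0.17, 0.08, 0.12 and 0.33 FPKM in WT-veh and at 45.9, 15.6, 9.67 and 12.2 in WT-DES. It was at 0.15, 0.41, 0.67 and 0.60 in αERKO-veh and at 0.04, 0.18, 0.04 and 0.02 in αERKO-DES. As with the agonists, sample 1 was the highest of WT-DES and no WT-DES sample came near the other groups. The log2 change was 3.96 (standard error 0.32, adjusted p = 6.01e-08), and the ratio of means, 119 with all samples, was 71.3 without sample 1. These ratios, like those of *Il1b* and *Il1a*, divide by a WT-veh mean below 1 FPKM and are rough. Antagonist and agonist transcripts thus rose together. Within a WT-DES sample the FPKM of *Il1rn* was 0.585 to 0.939 times that of *Il1b*, a narrow range beside the 4.17-fold range of *Il1b* itself. The same quotient ranged from 0.151 to 0.647 in WT-veh. It ranged from 0.231 to 2.58 with αERKO-veh. In αERKO-DES it was 0.0533 to 0.22. Both genes were below 1 FPKM in these 3 groups, where small differences move the quotient.

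*Tnf* (chr17:35199381-35202007, minus strand) was at 0.62, 0.38, 0.10 and 0.32 FPKM in WT-veh and at 6.93, 6.53, 6.57 and 2.53 in WT-DES. It was at 0.57, 0.22, 0.20 and 0.55 in αERKO-veh and at 0.37, 0.39, 0.44 and 0.58 in αERKO-DES. Here 3 WT-DES samples were close together and sample 4 was low, although still above all samples of the other groups. The log2 change was 2.24 (standard error 0.22, adjusted p = 3.64e-07), and the means were 0.355 ± 0.21 and 5.64 ± 2.08 FPKM (SD, n = 4 each).

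*Il6* (chr5:30013114-30019981, plus strand) had a mean below 1 FPKM in every group. It was at 0.04, 0.48, 0.12 and 1.87 FPKM in WT-DES, and at 0.05 in WT-veh sample 1 and 0 in the other WT-veh samples. It was at 0, 0.02, 0 and 0.05 in αERKO-veh and at 0.05 in αERKO-DES sample 4 and 0 in the others. WT-DES sample 1, the highest for *Il1b*, was the lowest for *Il6* and lay below WT-veh sample 1. *Il17a* (chr1:20730905-20734496, plus strand) was at 0.56, 0.07, 0.07 and 0.19 FPKM in WT-DES and was listed at 0 in all 12 other samples. With no minimum level, the log2 change in WT was 0.56 for *Il6* (adjusted p = 0.0405) and 0.27 for *Il17a* (adjusted p = 0.0127), while neither interaction with genotype passed (adjusted p = 0.138 and 0.0679). No fold is given for genes so close to the last decimal of the table in WT-veh.

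Among the epithelial cytokines, *Il33* (chr19:29925114-29960718, plus strand) moved most. It was at 7.65, 7.5, 6.51 and 8.14 FPKM in WT-veh and at 22.3, 41.3, 15.6 and 52.2 in WT-DES. It was at 6.97, 12.04, 8.29 and 9.22 in αERKO-veh and at 7.20, 7.23, 5.77 and 8.57 in αERKO-DES. The gene was thus well measured in all groups, and within WT-DES its order differed from that of *Il1b*, with sample 4 the highest and sample 3 the lowest. The log2 change in WT was 1.86 (standard error 0.28, adjusted p = 2.57e-05), a ratio of means of 4.41.

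*Tslp* (chr18:32815383-32819797, plus strand) was at 2.07, 0.99, 1.64 and 1.67 FPKM in WT-veh and at 2.72, 3.90, 4.78 and 4.74 in WT-DES. It was at 1.85, 1.80, 0.98 and 1.52 in αERKO-veh and at 1.92, 1.08, 0.78 and 0.92 in αERKO-DES. The lowest WT-DES sample, sample 1, was near the highest WT-veh sample. The log2 change was 0.95 (standard error 0.19, adjusted p = 0.000366), a ratio of means of 2.53.

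*Il18* (chr9:50554827-50581840, plus strand) showed the smallest log2 change of the 8 tested genes. It was at 3.99, 3.54, 3.58 and 3.75 FPKM in WT-veh and at 4.78, 5.47, 6.34 and 6.06 in WT-DES. It was at 3.27, 2.57, 2.13 and 3.29 in αERKO-veh and at 3.96, 2.88, 2.27 and 2.22 in αERKO-DES. The WT groups did not overlap, and the log2 change was 0.49 (standard error 0.14, adjusted p = 0.00507). The ratio of means was 1.52 against the 1.5 required of a called gene, and it fell to 1.46 without WT-DES sample 3 and to 1.49 without sample 4, so the call was lost in both cases. It was also lost with quantile normalization, where the log2 change was 0.11. *Bco2*, opposite *Il18*, was between 0.79 and 1.06 FPKM in WT-DES and between 0.40 and 0.68 in WT-veh.

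*Csf1* (chr3:107741048-107760469, minus strand) had the most even response. It was at 10.4, 10.04, 9.59 and 9.89 FPKM in WT-veh and at 27.85, 29.6, 24.4 and 23.9 in WT-DES. It was at 10.5, 11.65, 8.87 and 10.9 in αERKO-veh and at 9.33, 8.93, 9.71 and 8.81 in αERKO-DES. The lowest WT-DES sample, at 23.9, was well above the highest sample of the other groups, at 11.65. The log2 change was 1.32 (standard error 0.08, adjusted p = 4.74e-09), a ratio of means of 2.65.

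A gene was called where the adjusted p was at most 0.05 and the group means differed at least 1.5-fold, with 1 of them above 1 FPKM. All 8 tested genes were called higher in WT-DES, where 28.9% of all tested genes were called higher and 52.7% were called in either direction. *Il1a*, *Il1b*, *Il1rn* and *Tnf* entered the test through WT-DES alone and so had to differ, and their number says nothing further. *Il33*, *Tslp*, *Il18* and *Csf1* were above 1 FPKM in every group and needed no change to be tested. When the values were rescaled without the 20 most abundant genes, the median of all tested genes went from −0.01 to 0.38 on the log2 scale, and calls in both directions went from 4613 higher and 3815 lower to 6953 higher and 1831 lower. The 8 genes were called higher in both cases.

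The order of the levels differed between groups. In WT-veh *Csf1* was the highest (9.98 ± 0.34 FPKM, SD, n = 4), followed by *Il33* (7.45 ± 0.68), *Il18* (3.715 ± 0.20) and *Tslp* (1.59 ± 0.45), each separated from the next by its range. *Il1b*, *Tnf* and *Il1a* followed at 0.39, 0.355 and 0.32 FPKM with overlapping ranges, and *Il1rn* at 0.175 overlapped *Il1a*. In WT-DES *Il33* (32.9 ± 16.9), *Il1b* (29.0 ± 25.3), *Csf1* (26.4 ± 2.74) and *Il1rn* (20.8 ± 16.9) formed the upper group, in which each neighbour overlapped the next. *Il18* (5.66 ± 0.69), *Tnf* (5.64 ± 2.08), *Tslp* (4.035 ± 0.97) and *Il1a* (3.94 ± 2.93) formed a lower group that also overlapped. Both αERKO groups had the order of WT-veh for the means of their upper 4 genes, *Csf1*, *Il33*, *Il18* and *Tslp*, but in αERKO-veh the ranges of *Csf1* and *Il33* overlapped, and in αERKO-veh sample 2 *Il33* (12.04 FPKM) was above *Csf1* (11.65).

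The response to DES without ERα was tested in αERKO-DES versus αERKO-veh. *Il1a*, *Il1b*, *Il1rn* and *Tnf* had means below 1 FPKM in both αERKO groups and in WT-veh, so between these groups they could not be called. Of the 4 genes that could be, *Il33*, *Tslp*, *Il18* and *Csf1*, 0 were called by limma there, and 0 of the 8 passed 0.05 before adjustment. Of all tested genes 1.49% (239) were called, a count that moved between 1 (without αERKO-veh sample 4) and 653 (without αERKO-veh sample 1) when a sample was left out, and that was 1119 with sample weights. The log2 changes lay between −0.43 (*Il1rn*, 95% interval −1.12 to 0.26) and 0.15 (*Il1b*, 95% interval −0.58 to 0.87). For *Csf1*, the most even gene, the change was −0.17 with a 95% interval of −0.34 to 0.01, far from its change of 1.32 in WT. For *Il18* the interval, −0.30 to 0.29, overlapped that of its change in WT, 0.20 to 0.79, and with quantile normalization the change was 0.19 in αERKO and 0.11 in WT.

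The difference between the genotypes in the response to DES was tested itself, as the change in WT minus the change in αERKO. It was called for 7 of the 8 genes, all with the larger change in WT, while 56.4% of all tested genes were called in either direction and 29.6% with the larger change in WT. *Il1a*, *Il1b*, *Il1rn* and *Tnf* were tested because WT-DES was high, which builds a larger change in WT into them, so that only the 3 calls on *Il33*, *Tslp* and *Csf1* can be read against these shares. Of these, the call on *Tslp* was lost with quantile normalization, where its difference was 0.51. The difference was 4.39 for *Il1rn* (standard error 0.46, limma adjusted p = 1.15e-06) and 4.0 for *Il1b* (0.48, adjusted p = 4.28e-06) on the log2 scale. It was 2.16 for *Tnf*, 2.15 for *Il33*, 1.73 for *Il1a*, 1.48 for *Csf1* and 1.19 for *Tslp*, with adjusted p between 9.15e-08 and 0.00115. For *Il18* it was 0.50 (standard error 0.20, adjusted p = 0.0347), under the size required, and it turned to −0.08 with quantile normalization.

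**Figure D2:**
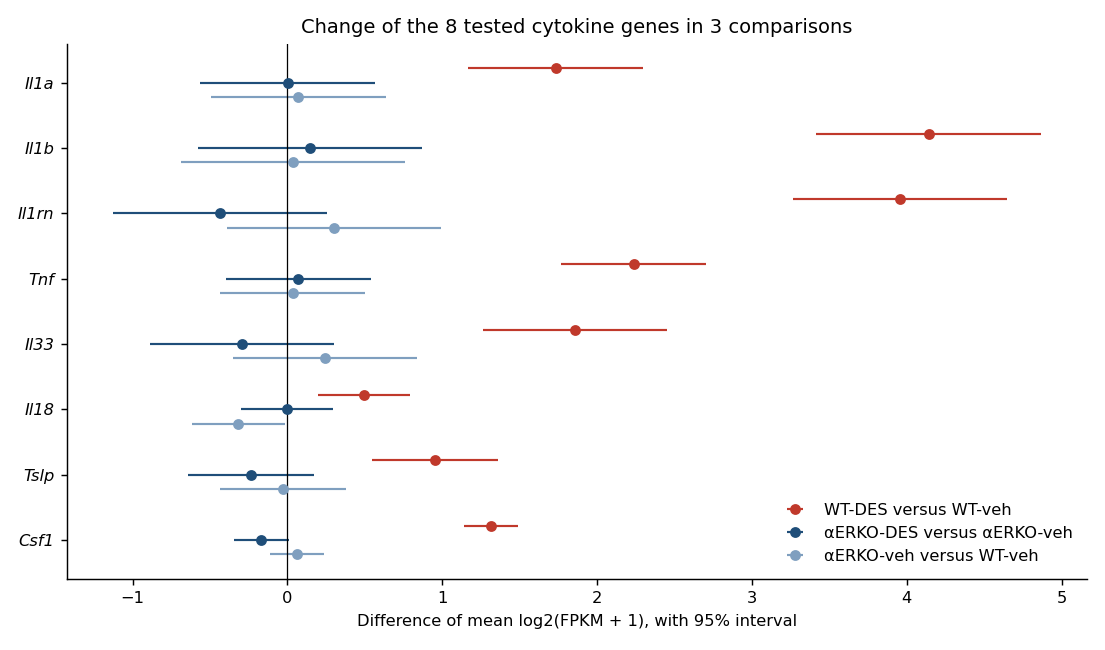
Difference of the group means of log2(FPKM + 1) for the 8 tested genes in 3 comparisons. Points are limma estimates and lines 95% intervals, which use a spread per gene that is shared by all groups. All 8 intervals for WT-DES versus WT-veh lie above 0, from *Il18* (0.49) to *Il1b* (4.14), and the 8 intervals for αERKO-DES versus αERKO-veh include 0.

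Set against each other after the same exposure, αERKO-DES was called lower than WT-DES in all 8 tested genes, of which the 4 tested through WT-DES alone had to be lower. The other 4 were *Il33*, *Tslp*, *Il18* and *Csf1*, where 29.6% of all tested genes were called lower and 53.4% in either direction. This comparison shares the WT-DES samples with that of WT-DES and WT-veh. The log2 differences were −4.09 for *Il1rn*, −3.96 for *Il1b*, −2.13 for *Tnf*, −1.91 for *Il33*, −1.66 for *Il1a*, −1.42 for *Csf1*, −1.22 for *Tslp* and −0.81 for *Il18*. The call for *Il18* was lost with quantile normalization (−0.31). Cell type markers differed in this comparison too. Called lower were 16 of 16 leukocyte, 6 of 6 fibroblast, 4 of 4 endothelial, 4 of 4 adipose and 3 of 4 basal cell markers. Of these, 6 leukocyte markers and the adipose marker *Lep* were tested through WT-DES alone. Called higher were 8 of 8 secretory, 4 of 4 anterior prostate, 5 of 6 epithelial, 4 of 5 smooth muscle and 1 of 5 skeletal muscle markers. Their part in the cytokine differences was not tested.

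Loss of ERα by itself was tested in αERKO-veh versus WT-veh. Of the 4 genes that could be called, 0 were called by limma, against 7.12% (1139) of all tested genes, a count that fell to 418 without αERKO-veh sample 2, to 715 without WT-veh sample 3 and was 1691 without αERKO-veh sample 1. *Il1rn* had means of 0.175 and 0.4575 FPKM in these groups, both too low for a call. Before adjustment 1 of the 8 genes, *Il18*, passed 0.05, with a log2 difference of −0.32 (limma adjusted p = 0.107). *Il18* was below every WT-veh sample in all 4 αERKO-veh samples, but the difference turned to 0.024 with the length trend removed. In αERKO-DES versus WT-veh, 0 of the 4 genes that could be called were called by limma, against 3.18% (508) of all tested genes, a count that moved between 199 (without αERKO-DES sample 3) and 883 (without αERKO-DES sample 1). *Il18* was again the gene that passed 0.05 before adjustment, with a log2 difference of −0.32 (limma adjusted p = 0.16), or −0.10 with the length trend removed. Without αERKO-DES sample 1, the only one of its group within the WT-veh range, *Il18* was called lower there (log2 difference −0.45). With all samples, 3 of 6 fibroblast, 3 of 4 adipose, 1 of 4 anterior prostate and 1 leukocyte marker were also called lower in αERKO-DES than in WT-veh. Their part in the *Il18* values was not tested.

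The 4 WT-DES samples varied far more for some of the genes than for others. The coefficient of variation was 87.1% for *Il1b*, 81.1% for *Il1rn*, 74.3% for *Il1a* and 51.4% for *Il33*, but 36.9% for *Tnf*, 23.9% for *Tslp*, 12.2% for *Il18* and 10.4% for *Csf1*. WT-DES sample 1 was the highest for 5 of the 10 genes, *Il1a*, *Il1b*, *Il1rn*, *Tnf* and *Il17a*, and the lowest for *Il6*, *Il18* and *Tslp*.

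Markers of other cell types moved with DES as well, in a comparison where 28.9% of all tested genes were called higher and 23.9% lower. The 16 leukocyte markers were all called higher in WT-DES, of which 6 were tested through WT-DES alone and had to be higher, with a summed level of 645 to 1418 FPKM against 87.85 to 151 in WT-veh, and of 58.45 to 94.7 with αERKO-veh and 50.8 to 72.7 with αERKO-DES. No leukocyte marker was at 0 in a WT-DES sample, and the neutrophil receptor gene *Cxcr2* was at 0 in 2 of the 4 WT-veh samples. The summed level of 4 basal cell markers was 248 to 533 FPKM in WT-DES and 168 to 245 in WT-veh (2 of 4 called higher), and that of 6 epithelial markers was 765 to 1062 against 1459 to 1609.7 (5 of 6 called lower). The 6 fibroblast, 4 endothelial and 4 adipose markers were all called higher, *Lep* of the last having been tested through WT-DES alone, and 4 of 5 smooth muscle and 2 of 5 skeletal muscle markers were called lower. Anterior prostate markers, called lower in 4 of 4, summed to 65.2 to 419 FPKM in WT-DES and 4524 to 5561 in WT-veh. The part of these shifts in the cytokine values was not tested.

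Markers of other cell types also differed between the αERKO groups, where 1.49% of all tested genes were called, the count that moved between 1 and 653 with a sample left out. The 4 adipose markers summed to 0.58 to 4.63 FPKM in αERKO-DES and 5.45 to 165.6 in αERKO-veh (2 of 4 called lower), and the 5 skeletal muscle markers to 476 to 674 against 554 to 1470 (3 of 5 called lower). Of the endothelial, fibroblast and anterior prostate markers, 1 of 4, 1 of 6 and 1 of 4 were called lower. Of the 9 leukocyte markers that could be called, 0 were called by limma. αERKO-veh sample 2, the highest of its group for *Il33* (12.04 FPKM), was also the highest for the adipose sum (165.6) and the endothelial sum (85.55). The part of these differences in the cytokine values of the αERKO groups was not tested.

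Within WT-DES, markers of several cell types stood out in the same sample as the IL-1 genes. The 5 smooth muscle markers summed to 2599 FPKM in sample 1 and to 497 to 850 in the other 3, and the 5 skeletal muscle markers to 324 against 33.2 to 74.9. Nearly all of the skeletal muscle sum in sample 1 came from *Acta1* (235, 24.9, 43.1 and 48.95 FPKM in samples 1 to 4) and *Ckm* (80.2, 1.82, 5.27 and 13.2), while *Myh4* and *Tnnt3* were not highest in sample 1 and *Myl1* was lowest there. Of the 4 basal cell markers, *Krt5*, *Krt15* and *Trp63* were highest in sample 1, but *Krt14* was at 55.5, 70.65, 35.75 and 175 and thus highest in sample 4. Neutrophil markers were highest in sample 1 too. *S100a8* was at 371, 47.8, 44.7 and 85.5 FPKM in WT-DES samples 1 to 4, and *S100a9* at 415, 41.4, 46.7 and 97.4. The receptor gene *Csf3r* was at 29.4, 5.21, 6.62 and 7.19. All of them were highest in sample 1, where *Il1b* was at 67.0, while *Il1b* was at 16.1 to 16.6 in the other 3 samples despite a range of 44.7 to 85.5 for *S100a8*. T cell markers had another order, with *Cd3g* at 7.20, 31.65, 26.8 and 8.72 FPKM and thus lowest in sample 1. *Il33* was highest in samples 4 and 2, which were also highest for the summed adipose markers (159.6, 301.7, 139.6 and 387 FPKM) and the summed endothelial markers (90.3, 133, 118 and 145). The adipose gene *Lep* went otherwise, at 3.30, 7.0, 1.68 and 2.66. The part of these cell types in the spread was not tested. Without sample 1, all 8 tested genes were still called higher in WT-DES.

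**Figure D3:**
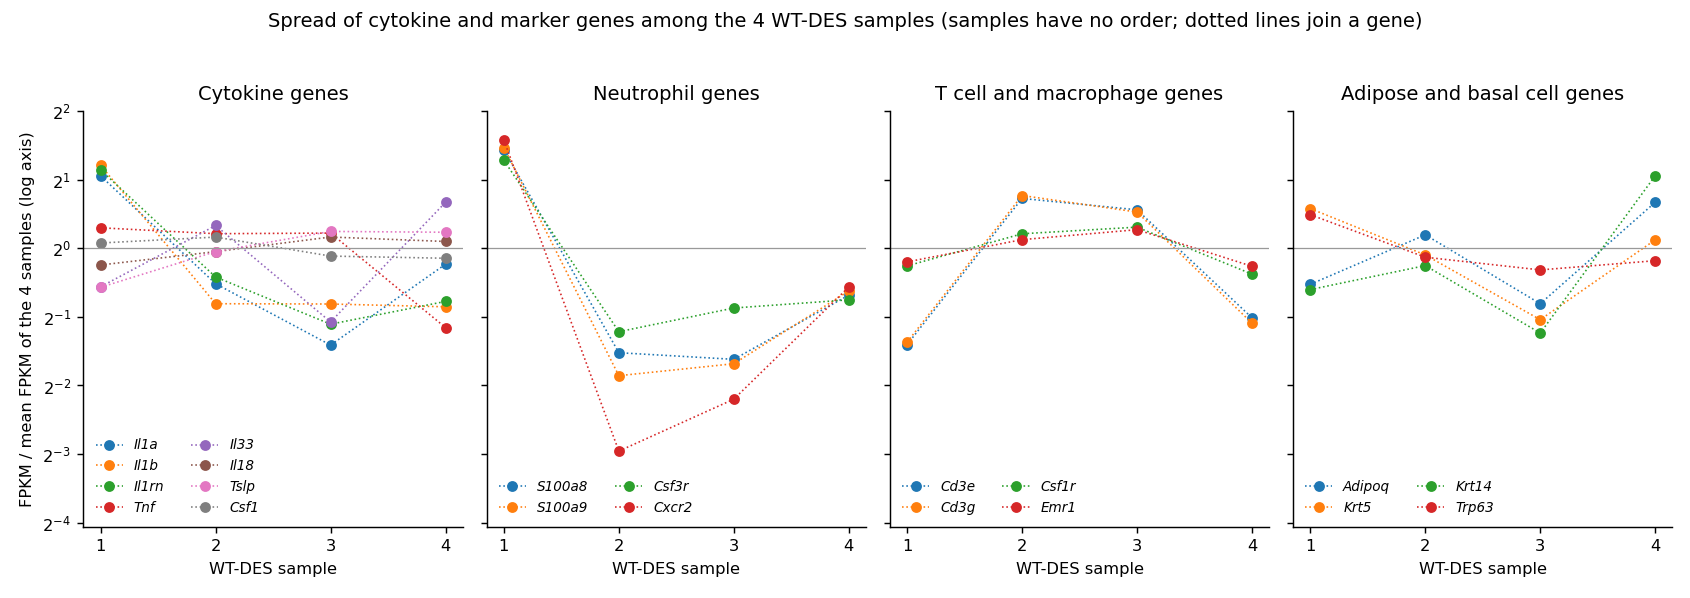
FPKM of each gene in WT-DES samples 1 to 4, divided by its mean over these 4 samples (log axis), for 8 cytokine genes and for markers of neutrophils, T cells and macrophages, and fat and basal cells; dotted lines only join the points of a gene, since the samples have no order. *Il1a*, *Il1b* and *Il1rn* and the 4 neutrophil genes are highest in sample 1, where the T cell genes are lowest; *Csf1* and *Il18* are nearly flat. *Emr1* is the older symbol of the macrophage gene *Adgre1*.

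The receptors of these cytokines were measured in every group. Of 16 genes for receptors and soluble antagonists, 10 were called higher with DES in WT, 1 was called lower and 5 were not called, against 28.9% called higher and 52.7% called in either direction over all tested genes. Of the 10, *Il1rl1* and *Il7r* were tested through WT-DES alone, which leaves 8 of 14. The median log2 change over all 16 was 1.1. In αERKO-DES versus αERKO-veh 0 of the 14 that could be called were called by limma, against 1.49% of all tested genes, and the median over the 16 was −0.05.

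For the IL-1 system, the signalling receptor *Il1r1* was at 24.1 to 32.1 FPKM in WT-veh and 18.9 to 28.1 in WT-DES and was not called (log2 change −0.31, adjusted p = 0.0448, under 1.5-fold). The decoy receptor *Il1r2* was at 37.3, 11.5, 5.79 and 15.8 FPKM in WT-DES against 7.84 to 10.6 in WT-veh, so that WT-DES sample 1 was again the highest, and it was not called (0.61, adjusted p = 0.128). The shared co-receptor *Il1rap* was called higher (0.55, adjusted p = 0.000103), a call lost with quantile normalization and with the length trend removed. *Il1rl1*, the receptor of IL-33, was at 1.43 to 1.96 FPKM in WT-DES and at 0.29 to 0.37 in WT-veh (0.98, adjusted p = 3.61e-07).

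The IL-18 receptor chains *Il18r1* (log2 change 1.23) and *Il18rap* (1.45) were called higher in WT-DES, while *Il18bp*, the soluble IL-18 antagonist, was at 13.8 to 33.4 FPKM against 20.7 to 24.1 and was not called (0.04, adjusted p = 0.876). For TNF, *Tnfrsf1b* was called higher (2.23, adjusted p = 4.55e-08) and *Tnfrsf1a*, at 91.0 to 107 FPKM against 64.0 to 76.4, changed by less than 1.5-fold (0.45). For IL-6, *Il6ra* (2.13) and the shared signalling chain *Il6st* (1.44) were called higher. These 2 genes were also called higher in αERKO-veh than in WT-veh, by 0.54 and 0.57. In that comparison, where 7.12% of all tested genes were called, 2 of 4 endothelial and 2 of 5 skeletal muscle markers were called higher and 1 of the 10 leukocyte markers that could be called was called lower, and their part in these values was not tested. Both calls were lost without αERKO-veh sample 2, at 0.44 for *Il6ra* and 0.43 for *Il6st*, whose ratio of means was 1.51 with that sample and 1.34 without it. Leaving out other samples singly also ended them, WT-veh sample 2 or 3 for *Il6ra* and any of 9 of the 16 samples in all for *Il6st*.

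For IL-17A, *Il17ra* was called higher (1.24) and *Il17rc* lower (−0.80), the latter not called after rescaling without the 20 most abundant genes (−0.38). For TSLP, the specific chain *Crlf2* was not called (−0.29) and the chain it shares with IL-7, *Il7r*, was called higher (2.12). *Il7r* is also a T cell gene, and with 2.47, 6.92, 5.16 and 2.66 FPKM in WT-DES it was high in the samples that were high for *Cd3g*. *Csf1r*, the receptor of CSF1 and a macrophage gene, was at 44.6, 61.7, 66.0 and 41.1 FPKM in WT-DES and 8.47 to 14.6 in WT-veh (2.15, adjusted p = 1.97e-07). *Il34*, the other ligand of this receptor, was at 5.35 to 7.51 against 5.20 to 6.43 FPKM and was not called (0.18, adjusted p = 0.155), whereas *Csf1* was.

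**Figure D4:**
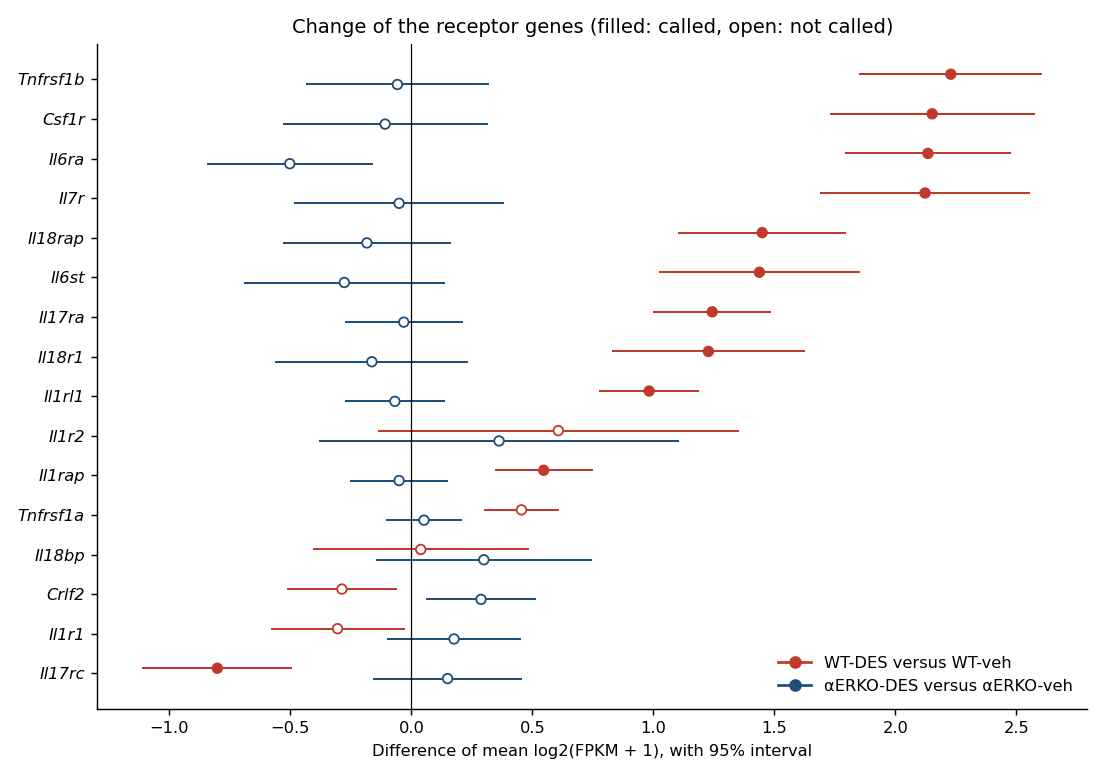
Difference of the group means of log2(FPKM + 1), with 95% intervals, for 16 receptor and antagonist genes in WT (red) and αERKO (blue); filled points were called. In WT 10 genes are called higher, led by *Tnfrsf1b* (2.23), and *Il17rc* (−0.80) lower; no αERKO point is filled.

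Of 27 genes that process these cytokines or carry their signals, 16 were called higher in WT-DES, 2 lower and 9 were not called, with a median log2 change of 0.73. Over all tested genes 28.9% were called higher and 52.7% in either direction. *Nlrp3* was the gene of this list tested through WT-DES alone. The log2 changes of the genes called higher ran from 0.61 to 3.06. IL-1β and IL-18 are cut to their active forms by caspase-1, and *Casp1* was at 8.38 to 16.8 FPKM in WT-DES against 0.74 to 1.72 (log2 change 2.49, adjusted p = 2.11e-08). *Nlrp3*, an inflammasome sensor, was at 7.64, 1.86, 2.21 and 1.56 FPKM in WT-DES and 0.17 to 0.23 in WT-veh (1.65), with WT-DES sample 1 the highest as for *Il1b*. The adaptor gene *Pycard* was called lower (−0.60), a call lost with quantile normalization and after rescaling without the 20 most abundant genes.

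*Socs3*, a feedback inhibitor of cytokine signalling, was at 15.6 to 35.1 FPKM against 1.54 to 3.04 (log2 change 3.06). The NF-κB regulators *Nfkbiz* (1.93) and *Tnfaip3* (1.79) were called higher, while the inhibitor gene *Nfkbia* was not called (0.18, adjusted p = 0.0714). The kinase *Irak1*, downstream of the IL-1 receptor, was called lower (−0.98), but not after rescaling (−0.55). In αERKO-DES versus αERKO-veh 0 of the 26 that could be called were called by limma, against 1.49% of all tested genes.

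Of 32 further cytokine genes, 16 were high enough to be tested, 14 were called higher in WT-DES, 1 was called lower and 1, *Il34*, was not called. Of the 16, 9 were above 1 FPKM in WT-DES alone and so had to be higher there, and their calls say nothing further. Of the other 7, 5 were called higher and 1 lower, where 28.9% of all tested genes were called higher and 52.7% in either direction. The median log2 change over all 32 was 0.44, and the genes called higher ran from 0.60 to 3.17. *Il1f6* and *Il1f9* are the older symbols of 2 IL-36 genes, epithelial members of the IL-1 family. *Il1f9* was at 20.9, 0.82, 0.47 and 3.29 FPKM in WT-DES and at or below 0.07 in the other 12 samples, and *Il1f6* was at 3.25, 1.98, 0.62 and 4.38 and listed at 0 in the other 12. *Il1f9* thus shared its highest sample with *Il1b*. *Csf3*, the neutrophil growth factor gene, was at 9.43, 2.76, 2.04 and 3.68 FPKM in WT-DES and 0.74 to 1.22 in WT-veh (log2 change 1.38, adjusted p = 0.00118).

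The lymphocyte cytokine *Ltb* was at 18.05, 41.75, 35.1 and 16.4 FPKM in WT-DES against 1.35 to 3.47 (3.17), and *Ifng* at 0.39, 4.18, 3.0 and 0.86 against 0.04 to 0.09 (1.36). Both were high in samples 2 and 3, as *Cd3g* was, and not in sample 1. *Lif*, of the IL-6 family, was at 2.07 to 3.31 FPKM against 0.26 to 0.37 (1.43). *Il15* was the gene called lower, at 10.3 to 13.2 FPKM against 31.6 to 42.1 (−1.54, adjusted p = 4.89e-09). In αERKO-DES versus αERKO-veh 0 of the 7 that could be called were called by limma, again against 1.49% of all tested genes.

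Genes whose deviations from the group means were most like those of each cytokine were ranked by Pearson's r over the 16 samples, as a description. *Il1a*, *Il1b* and *Il1rn* were below 1 FPKM in every sample outside WT-DES. For these genes r rests mostly on the WT-DES samples, of which sample 1 was the highest. The genes most like *Il1a* were the chemokine gene *Cxcl3* (r = 0.974), *Fam46b* (0.966) and *Bdnf* (0.964). Those most like *Il1b* were *Ooep*, *AK006637* and *5430417L22Rik* (0.97 to 0.965), and those most like *Il1rn* were *D730001G18Rik*, *Mafk* and *Arhgap40* (0.960 to 0.957). *Tnf* was most like *Fcgr4* (0.899), an Fc receptor gene of myeloid cells, then *Agtrap* and *Klra2*. Among the genes most like *Il33* were *Mall* (0.939) and *Lipm* (0.919). *Il18* was most like *Rab34* (0.944), *Atp6v1g3* and *Zscan2*, and *Tslp* like *Xylt2* (0.905), *Zfp629* and *Klhl22*. Among the genes most like *Csf1* were *Calhm2* (0.842) and *Vsig10* (0.837).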

How the data were processed

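RNA-seq of SV samples from WT and αERKO mice at week 5 was analysed. The authors filtered the paired-end reads by quality, aligned them to mm10 with TopHat 2.0.4, assembled them with Cufflinks 2.0.2 and deposited FPKM values per gene, with 2 decimals. The gene annotation of the table, the use of strand and any scaling between libraries are not given in the sources used here. No fragment counts are in these values, so no interval for counting error is given.

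Values were taken as log2(FPKM + 1), and differences on this scale understate changes of low genes. Genes entered the fit where any group averaged over 1 FPKM (15988 genes). limma 3.58.1 under R 4.3.3 fitted all 16 samples together, with group means as the terms, and eBayes used a variance trend. Each gene thus had 1 estimate of spread for all groups. p-values are two-sided and Benjamini-Hochberg adjusted over all tested genes. A call needed an adjusted p no higher than 0.05, group means at least 1.5-fold apart and 1 of the 2 means over 1 FPKM. An interaction was called at the same p and a difference of at least 1.5-fold on the log2 scale. The fit was also run on data simulated with the same spread in all groups, which does not test it where the spread is unequal.

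All 10 cytokine genes are named, with their receptors, up to 8 genes each of the lists of processing genes and of other cytokines, and the 3 genes most alike in each case, of which some are not reported here. *S100a8*, *S100a9*, *Csf3r*, *Cxcr2*, *Cd3g*, *Krt5*, *Krt14*, *Krt15*, *Trp63*, *Acta1*, *Ckm*, *Myh4*, *Myl1*, *Tnnt3* and *Lep* come from the marker lists and were singled out after their values were seen. The genes and lists were chosen with earlier results of these data known, so counts over them are descriptions. Coordinates are from GENCODE M21 (GRCm38) and promoter windows from RefSeq (GRCm38.p6). Alternatives changed the pseudocount (0.1), the minimum level, the samples fitted, the variance trend, sample weights, the scaling (quantile, median ratio, without the 20 most abundant genes), a trend with gene length and the p threshold (0.01), added the replicate number as a block, or left out 1 sample at a time.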

Additional observations from a re-analysis of the deposited data

Results flagged for a closer look

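In groups of 4 samples, a sample was set apart where its gap to the nearest other sample exceeded 0.829 of the range of the group. Chance alone passes this in about 1 of 20 groups of normally distributed values, which FPKM near 0 are not. Among 37 sets of the 10 cytokine genes and 4 groups with any spread, 6 had such a sample. *Il1b* in WT-DES had its highest sample, 67.0 FPKM in sample 1, separated by 0.990 of the range, and *Il1rn* in WT-DES (45.9 FPKM in the same sample) by 0.837. *Tnf* in WT-DES had its lowest sample, 2.53 FPKM in sample 4, separated by 0.909. *Il1rn* in αERKO-DES (0.18 FPKM, 0.875) and *Il6* in WT-veh and in αERKO-DES (0.05 FPKM, ratio 1 in both) concerned values near 0. Among 68 sets of 18 other genes whose values by sample are given, 12 had such a sample. Many of these genes were singled out after their values were seen, so this number cannot be set against 1 in 20. In WT-DES it was sample 1, as the highest, for *Csf3r* (0.918), *Nlrp3* (0.893), *Acta1* (0.886), *S100a8* (0.875), *Il1f9* (0.862), *Ckm* (0.855) and *S100a9* (0.850). In WT-veh it was the highest sample for *Ckm* (273 FPKM, 0.94), *Csf3* (1.22 FPKM, 0.896) and *Il1f9* (0.07 FPKM, ratio 1), and in αERKO-veh for *S100a8* (0.87 FPKM, 0.977) and *Lep* (1.22 FPKM, 0.857).

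The change with DES differed between WT and αERKO by the interaction test for 7 cytokine genes, with log2 differences of 4.39 for *Il1rn*, 4.0 for *Il1b*, 2.16 for *Tnf*, 2.15 for *Il33*, 1.73 for *Il1a*, 1.48 for *Csf1* and 1.19 for *Tslp*. Of all tested genes 56.4% were called for this difference, and *Il1a*, *Il1b*, *Il1rn* and *Tnf* were tested because WT-DES was high, which builds it in. The call on *Tslp* was lost with quantile normalization (0.51).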

How the results depend on the processing

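The number of cytokine genes called in WT-DES versus WT-veh was 8, and 7 to 8 with 1 sample left out at a time, 7 with quantile normalization, 10 with no minimum level (*Il6* and *Il17a* then pass) and 8 under the other alternatives. The 7 interactions numbered 6 to 8, and the 8 differences between αERKO-DES and WT-DES numbered 7 to 10. In WT-DES versus WT-veh the called genes numbered 10 to 13 for receptors, 16 to 22 for processing and signalling and 10 to 21 for other cytokines, against 11, 18 and 15. With the replicate number as a block the count for WT-DES versus WT-veh was 8, and the block changed no call on a cytokine gene. Deviations of same-numbered samples had correlations of −0.215 to 0.277 over 24 pairs. Samples of unlike number were not compared, so this cannot show whether the numbers pair samples across groups. In αERKO-DES versus WT-veh the count was 0 to 1 with 1 sample left out at a time, *Il18* being the gene called without αERKO-DES sample 1. The calls that changed were those of *Il18*, near the 1.5-fold limit, and of *Tslp*, whose interaction was 0.51 and not called with quantile normalization. The interaction of *Il18* was −0.082 with quantile normalization and was called with a pseudocount of 0.1 (0.60), sample weights (0.71), rescaling (0.96), the length trend removed (1.12), and without αERKO-veh sample 3 (0.59) or αERKO-DES sample 1 (0.63). The cause was not tested.

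Other changes of sign concerned differences that were called under neither setting. In αERKO-DES versus αERKO-veh they were *Il1a* with sample weights (−0.033), rescaling (−0.031), the length trend removed (−0.067) and 1 sample left out (−0.028 to 0.031), *Tnf* with sample weights (−0.10) and the length trend removed (−0.016), and *Il18* with quantile normalization (0.19) and 1 sample left out (−0.14 to 0.073). In αERKO-veh versus WT-veh they were *Il1b* with quantile normalization (−0.0033) and 1 sample left out (−0.038 to 0.10), *Tnf* with 1 sample left out (−0.062 to 0.12), *Il18* with the length trend removed (0.024), and *Tslp* with rescaling (0.083), the length trend removed (0.27) and 1 sample left out (−0.15 to 0.086). In αERKO-DES versus WT-veh it was *Il33* with the length trend removed (0.011) and 1 sample left out (−0.13 to 0.036). The depth of the libraries is unknown, so for genes near 0 FPKM no limit of detection can be given.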
